A study of Mus musculus with 16 samples.

Results

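Ethanol is cleared by the liver mainly in a short chain of oxidations, and the 10 genes described here encode its enzymes. They were taken by name from the 27288 genes of a liver RNA sequencing study: the alcohol dehydrogenases Adh1, Adh4 and Adh5, the cytochrome P450 Cyp2e1, the catalase Cat, the aldehyde dehydrogenases Aldh2, Aldh1a1, Aldh1b1 and Aldh3a2, and the acetyl-CoA synthetase Acss2. All 10 were in the deposited table and all 10 passed the filter on low values, a mean of at least 10 normalised reads over the 16 libraries. The study compared C57BL/6 mice of 8 to 10 weeks labelled as liver-specific knockouts (L-Dnm1l KO) of Dnm1l, whose product DRP1 divides mitochondria, with wild-type (WT) mice. Each genotype was studied under a control condition, called control diet here, and with ethanol by the Gao-Binge protocol, where days on ethanol-containing liquid food are followed by 1 gavage. That gives 4 groups with 4 libraries each: WT control, WT ethanol, labelled-knockout control and labelled-knockout ethanol. The sources used here name no Cre driver or floxed exon, and do not say how many mice stand behind a library. P-values therefore measure the spread between these libraries, which may be technical.

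In hepatocytes, cytosolic alcohol dehydrogenases oxidise ethanol to acetaldehyde and pass the electrons to NAD+. The microsomal P450 CYP2E1 does the same reaction with NADPH and oxygen, is well known to be stabilised as a protein by ethanol, and is made mostly by hepatocytes around the central vein. Catalase in peroxisomes can oxidise ethanol with hydrogen peroxide. Acetaldehyde, which is reactive and toxic, is oxidised to acetate chiefly by the mitochondrial enzyme ALDH2, with cytosolic ALDH1A1 and mitochondrial ALDH1B1 as further enzymes, and ACSS2 in the cytosol and nucleus can activate acetate to acetyl-CoA.

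The 4 promoters below belong to the members with the largest differences by ethanol (Adh4, Acss2) or by genotype (Aldh1b1, Cyp2e1). Each is the 250 bases before the RefSeq start on GRCm38.p6, printed 5′ to 3′ on the gene's own strand, which is the plus strand in all 4: chr3:138415247-138415496, chr2:155517793-155518042, chr4:45798772-45799021 and chr7:140763569-140763818. Capitals mark matches on either strand to 8 letter patterns: the CCAAT box, the GC box GGGCGG, the TATA box TATAAA, the E-box CACGTG, an SRE-like pattern TCACNCCAC, the ARE core TGACNNNGC, a C/EBP-like pattern TTGCNNAA and the HNF1-like pattern GTTAAT. Overlapping matches run together.
Adh4: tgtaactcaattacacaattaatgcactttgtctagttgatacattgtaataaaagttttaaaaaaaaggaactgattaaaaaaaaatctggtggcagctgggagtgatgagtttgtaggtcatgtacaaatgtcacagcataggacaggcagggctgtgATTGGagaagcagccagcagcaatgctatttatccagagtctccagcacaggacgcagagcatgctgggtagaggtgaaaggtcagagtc
Acss2: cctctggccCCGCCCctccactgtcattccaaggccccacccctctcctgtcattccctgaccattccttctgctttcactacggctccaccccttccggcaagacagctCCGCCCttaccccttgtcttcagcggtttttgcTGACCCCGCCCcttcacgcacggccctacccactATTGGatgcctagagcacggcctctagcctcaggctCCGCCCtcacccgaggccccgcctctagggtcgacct
Aldh1b1: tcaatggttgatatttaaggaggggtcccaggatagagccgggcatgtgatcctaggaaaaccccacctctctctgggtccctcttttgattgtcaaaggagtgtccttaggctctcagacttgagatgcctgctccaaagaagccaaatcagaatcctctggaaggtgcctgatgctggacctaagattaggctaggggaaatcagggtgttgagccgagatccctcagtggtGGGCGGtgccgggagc
Cyp2e1: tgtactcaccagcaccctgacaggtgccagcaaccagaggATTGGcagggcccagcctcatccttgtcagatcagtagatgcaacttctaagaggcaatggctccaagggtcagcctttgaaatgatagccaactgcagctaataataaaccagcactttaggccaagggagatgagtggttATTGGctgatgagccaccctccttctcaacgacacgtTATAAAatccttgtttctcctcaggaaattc

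The windows differ in make-up. That of Acss2 is 64.0% G or C and holds 4 GC boxes, 1 CCAAT and 1 ARE core overlapping a GC box. Adh4 has 1 CCAAT in a window of 41.6% G or C, and Aldh1b1 has 1 GC box. Cyp2e1 has 2 CCAAT and TATAAA beginning 31 bases before the start. Of 32851 windows of this length in the RefSeq table, 33.8% hold CCAAT, 32.7% the GC box, 12.4% TATAAA, 10.2% the ARE core and 1.05% the SRE-like pattern. The SRE-like pattern is in none of the 4 windows, and in 1 of the 10 windows that the table gives for the 16 SREBP target genes described with Acss2. These are matches of letters in RefSeq windows, and no binding was measured. Windows were matched by symbol for 9 of the 10 members.

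Libraries held 11425136 to 13864862 reads assigned to genes, so the members, at 319 to 106129 normalised reads, were far above the counting limit in every library. Normalised reads are reads divided by 1 size factor per library. The hepatocyte marker Alb had group means between 872532 and 1173738 normalised reads, and none of 11 hepatocyte markers was at 0 in any library. Dnm1l was at 663 ± 56.1 (WT control), 743 ± 38.4 (WT ethanol), 642 ± 72.7 (labelled-knockout control) and 803 ± 99.3 normalised reads (labelled-knockout ethanol; SD, n = 4). A total over the gene does not check a deletion of some of its exons, so each genotype is given as labelled. Labelled-knockout ethanol library 1 held pancreas transcripts, with 8690 normalised reads summed over 7 markers against at most 308 in any other group, and library 4 more red cell and fat transcripts. In both ethanol groups libraries 1 and 2 stood apart from 3 and 4, and member calls that end without these libraries are given beside each gene. For other genes named below, the less stable calls are given with the number of alternative settings that ended them.

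Per kilobase of the principal transcript, the WT control livers gave most reads to the ethanol oxidisers. Cyp2e1 came first at 51841 ± 6048 normalised reads per kb, followed by Adh1 at 18781 ± 3062 and Cat at 12767 ± 1525 (SD, n = 4). Aldh2, at 6784 ± 361, and Aldh1a1, at 5452 ± 788, overlapped in their ranges, and Adh5 came next at 3824 ± 571. Aldh3a2 (1743 ± 256), Acss2 (1573 ± 973) and Adh4 (1385 ± 62.4) followed with overlapping neighbours, and Aldh1b1 was lowest at 278 ± 31.5. The order depends on the length used. Per kilobase of all annotated exons, the mean of Cat (12767) came before Adh1 (12549), and that of Adh4 (1255) before Adh5 (1134).

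The order differed in the other groups, mostly among the lower members. In WT ethanol Adh4 dropped to 298 ± 43.4 reads per kb, overlapping Aldh1b1 at 212 ± 33.5, and Aldh1a1 (7866 ± 528) overlapped both Cat (8160 ± 979) and Aldh2 (7455 ± 710). Labelled-knockout control livers had Cyp2e1 at 28400.3 ± 4509, overlapping Adh1 at 18661 ± 6166. In labelled-knockout ethanol Adh4 was last, at 392 ± 22.9, below Acss2 at 530.2 ± 157 and Aldh1b1 at 574 ± 136, which overlapped each other. Per kilobase of all annotated exons, Acss2 was instead below Adh4 in labelled-knockout ethanol, at 153 against 355. Values between genes are compared only per kilobase, and all values below are normalised reads per gene unless given per kilobase.

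**Figure D1:**
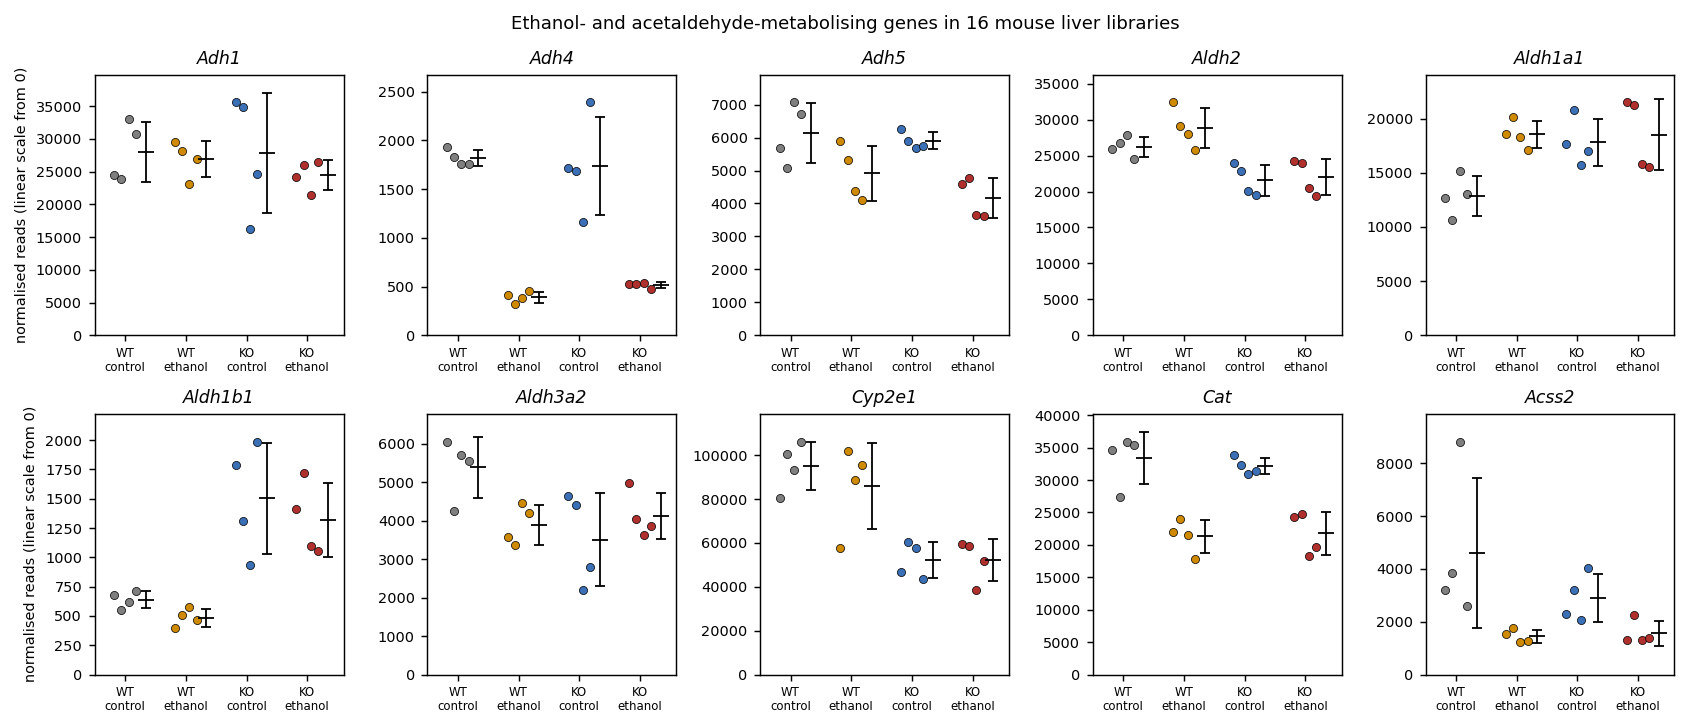
Normalised reads (linear axes from 0) of the 10 genes in the 16 libraries; points are libraries 1 to 4 from left to right, and the bar beside them is the group mean with its SD (n = 4). Adh4 sits at 1168 to 2390 in all control libraries and at 319 to 541 in all ethanol libraries, and Aldh1b1 is at 936 or above in every labelled-knockout library and at 710.0 or below in every WT library.

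Of the 10 genes, 4 passed the test between genotypes on control diet, where 11.6% of the 13256 genes tested were called. In labelled-knockout livers 2 were higher, Aldh1b1 and Aldh1a1 (6.4% of all genes), and 2 lower, Cyp2e1 and Aldh3a2 (5.24%). On ethanol 2 passed, with 9.88% of genes called: Aldh1b1 was higher (6.13% of all genes) and Cyp2e1 lower (3.75%). Ethanol changed 4 members in WT, where 38.0% of genes were called, with 3 lower, Adh4, Cat and Acss2 (19.0% of all genes), and 1 higher, Aldh1a1 (18.9%). In labelled-knockout livers 3 passed, Adh4, Adh5 and Cat, all lower (9.01% of all genes), with 19.2% of genes called. The share of members called by ethanol in WT is thus close to that of all genes. The median log2 difference of the 10 was -0.36 for ethanol in WT and -0.14 in labelled-knockout livers, against -0.0091 and -0.0076 over all genes. Every call is by limma on log2(normalised reads + 1) with a Benjamini-Hochberg adjusted p under 0.05 over all genes tested. The contrasts share libraries in pairs, so they are not independent of each other.

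**Figure D2:**
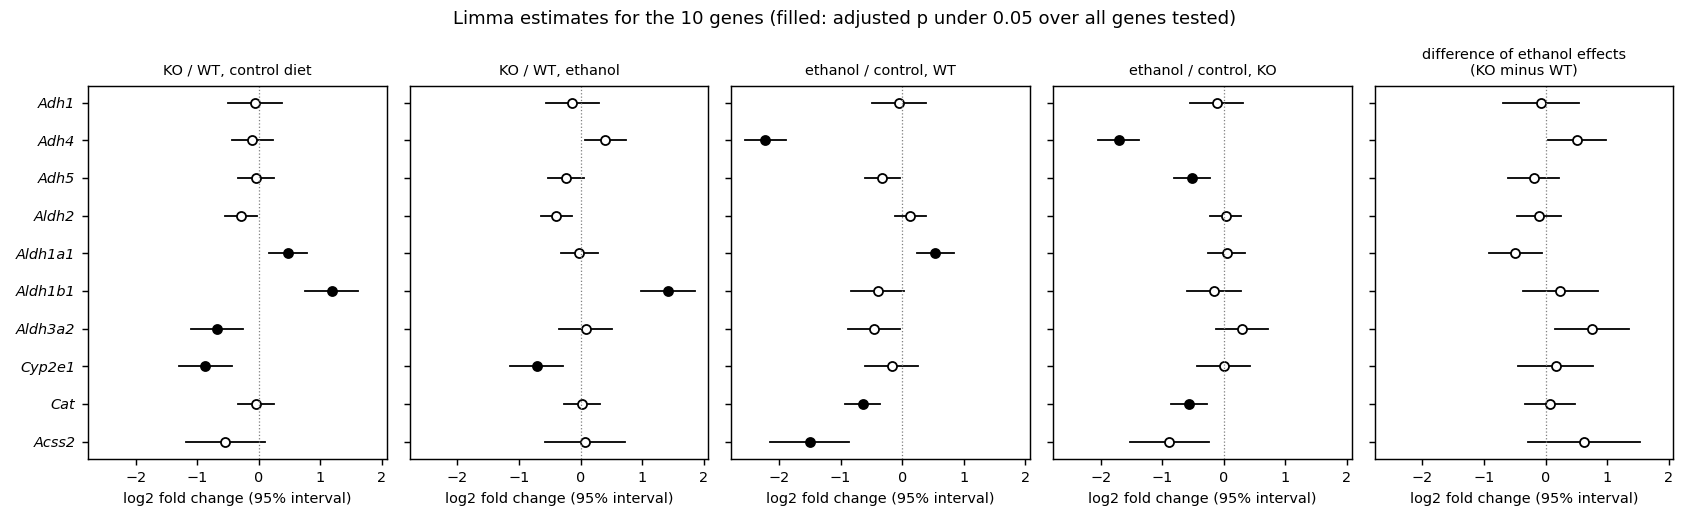
Log2 fold changes with 95% intervals for the 10 genes in 5 comparisons by limma, filled where the adjusted p was under 0.05. Adh4 lies at -2.22 and -1.71 for ethanol in the 2 genotypes, and Aldh1b1 at 1.18 and 1.42 for the genotype on the 2 diets.

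Among the alcohol dehydrogenases, ethanol lowered Adh4 and left the more abundant Adh1 without a call. Adh4 (ENSMUSG00000037797, chromosome 3, 138415466 to 138430892, plus strand, GRCm38) encodes the class II enzyme, which also oxidises retinol and works best at high ethanol. WT control libraries 1 to 4 had 1931, 1834, 1760.4 and 1755 normalised reads of it, and WT ethanol libraries 413, 319, 382 and 455. The WT groups were far apart, with a fall by 78.6% (log2 -2.22 ± 0.16 SE, limma adjusted p = 9.48e-08). Labelled-knockout control libraries had 1715, 1684, 1168 and 2389.9, and labelled-knockout ethanol libraries 525, 523, 541 and 472. They too did not overlap, with a fall by 69.4% (log2 -1.71 ± 0.16 SE, limma adjusted p = 4.69e-06). Control and ethanol groups do not overlap for 35.1% of all genes in WT and 23.0% in labelled-knockout livers. Between genotypes Adh4 differed by -0.11 on control diet (adjusted p = 0.718). Every ethanol library labelled knockout was above every WT ethanol library, yet that difference was not called (log2 0.40 ± 0.16 SE, limma adjusted p = 0.121, and 0.0432 without labelled-knockout control library 3). Groups of this comparison do not overlap for 15.7% of all genes. As a share of Adh1 per kilobase, Adh4 was 7.56 ± 1.5% in WT control, 1.67 ± 0.29% in WT ethanol, 7.53 ± 2.63% in labelled-knockout control and 2.41 ± 0.36% in labelled-knockout ethanol (SD, n = 4). In these whole livers, fewer cells of a type and less RNA per cell cannot be told apart.

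Adh1 (ENSMUSG00000074207, chromosome 3, 138260991 to 138290698, plus strand) encodes the class I enzyme that carries most ethanol oxidation at low concentrations. Its group means were 28022 ± 4569 (WT control), 26908 ± 2706 (WT ethanol), 27842 ± 9199 (labelled-knockout control) and 24540.0 ± 2299.6 normalised reads (labelled-knockout ethanol; SD, n = 4). Single libraries ran from 16237 to 35579, both in the labelled-knockout control group, and all groups overlapped. The log2 difference by ethanol was -0.05 in WT, with a 95% interval from -0.48 to 0.39, and -0.12 in labelled-knockout livers, from -0.55 to 0.32. Between genotypes it was -0.06 on control diet and -0.13 on ethanol (intervals from -0.50 to 0.37 and from -0.57 to 0.30). An antisense gene, Gm16559, overlaps Adh1, and reads of the pair cannot be told apart without a stated strand setting.

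Adh5 (ENSMUSG00000028138, chromosome 3, 138443093 to 138455499, plus strand) encodes the class III enzyme, known as the glutathione-dependent formaldehyde dehydrogenase and S-nitrosoglutathione reductase. Labelled-knockout control libraries had 6269, 5906, 5687 and 5757 normalised reads, against 4599, 4778, 3654 and 3614 with ethanol. The groups did not overlap, as for 23.0% of all genes, and the fall was by 30.0% (log2 -0.52 ± 0.14 SE, limma adjusted p = 0.0144). It lost its call without labelled-knockout ethanol library 4 (-0.45, adjusted p = 0.0514), without ethanol libraries 1 and 4 labelled knockout (-0.50, adjusted p = 0.0897) and with ethanol libraries 1 and 2 alone (-0.33, adjusted p = 0.106). In WT the values were 5671, 5086, 7067 and 6708 on control diet and 5902, 5310, 4378 and 4091 on ethanol, overlapping and not called (log2 -0.32 ± 0.14 SE, limma adjusted p = 0.0737). The WT fall was called with ethanol libraries 3 and 4 alone (-0.52, adjusted p = 0.0125), without WT control library 2 (-0.41, adjusted p = 0.0365) and without WT ethanol library 1 (-0.41, adjusted p = 0.0315). In both ethanol groups libraries 3 and 4 were the lower pair. Between genotypes the estimates were -0.04 on control diet and -0.24 on ethanol (adjusted p = 0.885 and 0.304).

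The Adh genes lie side by side on chromosome 3 in the order Adh7, Adh1, Adh6a, Adh6b, Adh6-ps1, Adh4 and Adh5, all on the plus strand. Over all 16 libraries Adh7 had a mean of 306 normalised reads, while Adh6a (0.562) and Adh6b (3.64) were too low to test. Adh7, a class IV enzyme better known from stomach, was lower by genotype on control diet (468 ± 52.3 against 253 ± 53.1 normalised reads, log2 -0.90, limma adjusted p = 0.0036) and fell with ethanol in WT (to 289 ± 80.8, log2 -0.73, adjusted p = 0.00408). An antisense gene, 0610031O16Rik, spans Adh7 and had a mean of 224 normalised reads, so this value is uncertain in the same way. Adh4 and Adh5, next to each other in the cluster, thus had ethanol estimates of different size, which were not tested against each other. Adh1, with the Adh6 genes between it and Adh4, had no ethanol change that passed the test.

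Cyp2e1 was about 1.8-fold lower in labelled-knockout livers on control diet and its transcript did not pass the test with ethanol in either genotype. The gene (ENSMUSG00000025479, chromosome 7, 140763739 to 140774987, plus strand) had 80466, 100460.0, 93045 and 106129 normalised reads in WT control libraries and 46586, 60258, 57905 and 43483 in labelled-knockout control libraries. The highest labelled-knockout value was below the lowest WT value, and the fall was by 45.5% (log2 -0.87 ± 0.20 SE, limma adjusted p = 0.0107). Groups of this comparison do not overlap for 17.4% of all genes. WT ethanol libraries had 57889, 101982, 88535 and 95763, and labelled-knockout ethanol libraries 59667, 58492, 38728 and 51658. Here WT library 1 lay within the labelled-knockout range, and the fall was by 38.9% (log2 -0.71 ± 0.20 SE, limma adjusted p = 0.0348).

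The ethanol-diet difference of Cyp2e1 was less stable than the control-diet one, which kept its call without any 1 library. It was not called without any 1 of WT ethanol libraries 2, 3 and 4 or labelled-knockout ethanol libraries 1, 3 and 4 (log2 -0.78 to -0.57, limma adjusted p from 0.0513 to 0.122). With ethanol libraries 1 and 2 alone it was -0.38 (adjusted p = 0.445), and without ethanol libraries 1 and 4 labelled knockout -0.82 (adjusted p = 0.129). Ethanol libraries of the 2 genotypes deviate together by number, and also across numbers 1 and 2 and across numbers 3 and 4. With the number as a block in the 2 ethanol groups alone the limma adjusted p was 0.0851. The call was also lost with no filter (adjusted p = 0.0991) and with only the 2 groups in the fit (0.104). For ethanol, the log2 change was -0.17 in WT (95% interval from -0.60 to 0.26) and -0.0044 in labelled-knockout livers (from -0.43 to 0.43). CYP2E1 protein was not measured.

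Markers of pericentral hepatocytes moved with Cyp2e1 between genotypes. Of 14 such genes, a list without Cyp2e1, 7 were lower and 1 was higher in labelled-knockout livers on control diet, with a median log2 difference of -0.51 against -0.0085 over all genes tested. On ethanol 7 were lower, with a median of -0.64 against -0.023 over all genes. The number lower was 4 to 7 over the alternatives on control diet, with 4 without WT control library 3, and 5 to 7 on ethanol. Slc1a2, a glutamate transporter, had 3165 ± 732 normalised reads in WT control and 1141 ± 230.1 in labelled-knockout control, and Cyp2c37 had 8618 ± 1156 in WT ethanol and 1327 ± 395 in labelled-knockout ethanol (SD, n = 4). Cyp2a5 was the higher one on control diet, at 3.97-fold, and among the lower ones on ethanol, at a fold of 0.575, a call that 13 of 30 alternatives ended. The mean log2 value of the list was 10.67 to 10.97 in WT control, 10.25 to 10.48 in labelled-knockout control, 10.68 to 11.32 in WT ethanol and 10.15 to 10.20 in labelled-knockout ethanol. None of these markers was at 0 in any library, and the part of pericentral cells in the Cyp2e1 difference was not tested. Of 12 periportal markers 1 was higher on control diet, Cyp2f2 at 1.47-fold, and 2 on ethanol, Cyp2f2 at 1.82-fold and Hsd17b13 at 1.40-fold, the last lost in 10 of 30 alternatives. Of 11 general hepatocyte markers 1, Apob, was lower on control diet, lost in 10 of 26 alternatives, with a median log2 difference over the list of -0.28, and -0.33 on ethanol. Over all genes 11.6% were called by genotype on control diet and 9.88% on ethanol.

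**Figure D3:**
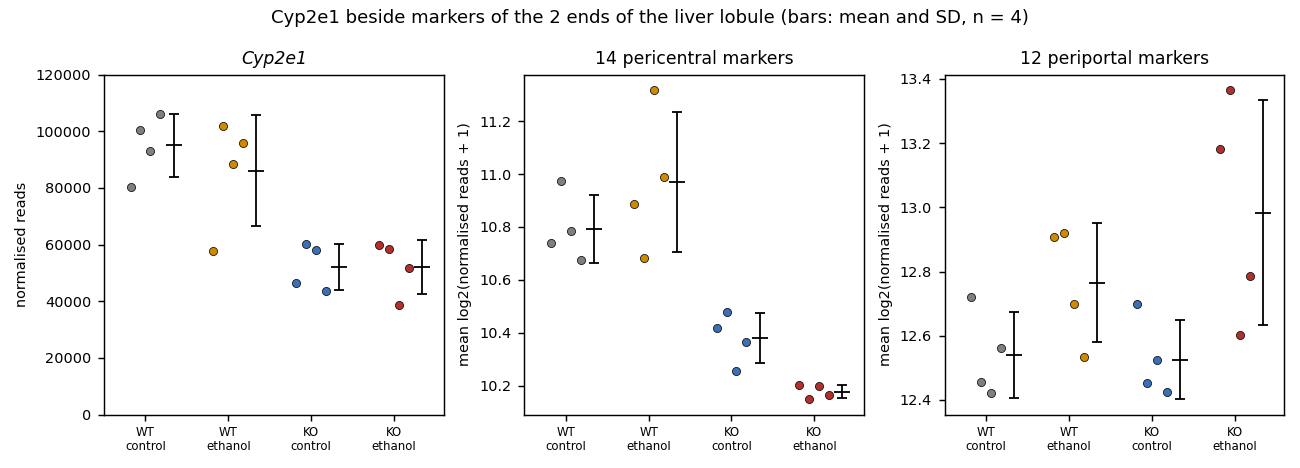
Normalised reads of Cyp2e1 (left) and the mean log2(normalised reads + 1) of 14 pericentral and 12 periportal markers (middle and right, axes not from 0) in each library; the bar beside the points is the mean with its SD (n = 4). Cyp2e1 and the pericentral list are lower in labelled-knockout control libraries than in every WT control library, while the periportal list overlaps.

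Genes for electron partners of P450s and for other P450s changed with ethanol where Cyp2e1 did not pass. Of 10 such genes 7 rose and 2 fell in WT, and 4 rose and 2 fell in labelled-knockout livers, beside 38.0 and 19.2% of all genes called. Por, the reductase that supplies electrons to all microsomal P450s, went from 4427 ± 594 to 17864 ± 4402 normalised reads in WT, a 3.97-fold rise (limma adjusted p = 1.6e-06), and from 4227 ± 963 to 10750.2 ± 2040.3 in labelled-knockout livers, 2.57-fold (adjusted p = 0.000192). Cyp1a2 rose 2.90-fold in WT, and the fatty acid hydroxylase Cyp4a10 rose 3.09-fold in WT and 6.09-fold in labelled-knockout livers. Cyb5b, the mitochondrial outer membrane cytochrome b5, fell to a fold of 0.512 in WT and 0.629 in labelled-knockout livers. On ethanol, Por, Cyp1a2 and Cyb5a were lower in labelled-knockout than in WT livers, at folds of 0.609, 0.534 and 0.635. None of these 3 was called without ethanol libraries 1 and 4 labelled knockout (limma adjusted p = 0.236, 0.0652 and 0.110). The call of Por was lost in 8 of 30 alternatives. Of all genes tested, 3.75% were called lower in this comparison.

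Catalase transcripts fell with ethanol in both genotypes by a similar amount. Cat (ENSMUSG00000027187, chromosome 2, 103453849 to 103485160, minus strand) had 34651, 27432, 35909.6 and 35448 normalised reads in WT control and 21922, 23953, 21601 and 17818 in WT ethanol libraries. In labelled-knockout livers it had 33814, 32283, 30950.1 and 31454 on control diet and 24282, 24781, 18300.3 and 19673 on ethanol. Neither pair of groups overlapped, where 35.1% of all genes in WT and 23.0% in labelled-knockout livers did not. The falls were by 36.1% in WT (log2 -0.65 ± 0.14 SE, limma adjusted p = 0.00167) and by 32.8% in labelled-knockout livers (log2 -0.57 ± 0.14 SE, adjusted p = 0.00849). The labelled-knockout call was lost without ethanol libraries 1 and 4 labelled knockout (-0.59, adjusted p = 0.0600) and with ethanol libraries 1 and 2 alone (-0.39, adjusted p = 0.0862). Between genotypes Cat differed by -0.05 on control diet and 0.03 on ethanol (95% intervals from -0.34 to 0.25 and from -0.27 to 0.32).

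Peroxisomal oxidases, which make the hydrogen peroxide that catalase uses, fell beside Cat in part. Of 13 tested genes for such oxidases and for catalase import, 6 fell and 2 rose with ethanol in WT (median log2 -0.49, against -0.0091 over all genes), and 3 fell and 1 rose in labelled-knockout livers (median -0.13, against -0.0076). Hao1, hydroxyacid oxidase, had 5392 ± 475 normalised reads in WT control and 2066 ± 75.2 in WT ethanol, and 4321 ± 679 and 2489 ± 223 in labelled-knockout livers (SD, n = 4). The polyamine oxidase Paox fell to a fold of 0.269 in WT and 0.312 in labelled-knockout livers, and the urate oxidase Uox to 0.447 and 0.703, its labelled-knockout call ending in 10 of 29 alternatives. Pex11a, a peroxisome division gene, rose 1.39-fold in WT and 1.64-fold in labelled-knockout livers (adjusted p = 0.0529 there without ethanol libraries 1 and 4). Of 15 other genes that remove hydrogen peroxide, 5 fell and 1 rose in WT, and 2 fell in labelled-knockout livers, where 38.0 and 19.2% of all genes were called. Among them the thioredoxin reductase Txnrd1 rose 1.57-fold with ethanol in WT and was 1.56-fold higher by genotype on control diet, while the peroxiredoxin Prdx4 fell to folds of 0.643 and 0.764 in the 2 genotypes, with the labelled-knockout call lost in 19 of 29 alternatives.

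Of the mitochondrial acetaldehyde oxidisers, Aldh1b1 was higher in labelled-knockout livers and Aldh2 was lower in each library without passing the limma test. Aldh1b1 (ENSMUSG00000035561, chromosome 4, 45799022 to 45804604, plus strand) had 682, 548, 618 and 710.0 normalised reads in WT control and 1790.3, 1308, 936 and 1987 in labelled-knockout control libraries. The lowest labelled-knockout value was above every WT value, and the groups stood 2.27-fold apart on the fitted scale (log2 1.18 ± 0.21 SE, limma adjusted p = 0.00133). On ethanol the WT libraries had 394, 506, 579 and 467 and the labelled-knockout libraries 1411, 1722, 1095 and 1051, 2.68-fold more without overlap (log2 1.42 ± 0.21 SE, adjusted p = 0.000182). Both calls held without any 1 library and by edgeR and DESeq2. The genotype groups do not overlap for 17.4% of all genes on control diet and 15.7% on ethanol. With ethanol libraries 3 and 4 alone the ethanol-diet difference was 1.04 (adjusted p = 0.0663). Ethanol itself left Aldh1b1 without a call, at log2 -0.40 in WT (95% interval from -0.83 to 0.03; limma adjusted p = 0.0410 with only the 2 groups in the fit) and -0.16 in labelled-knockout livers (from -0.59 to 0.27).

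Kupffer cell and macrophage markers also differed by genotype, with 8 of 13 higher in labelled-knockout livers on control diet and 13 of 13 on ethanol. Their summed level was 3224 to 7312 normalised reads in WT control, 7568 to 12010 in labelled-knockout control, 1209 to 1792 in WT ethanol and 6532 to 8316 in labelled-knockout ethanol libraries. None was at 0 in any library. With ethanol in WT 11 of the 13 fell. Over all genes, 6.4 and 6.13% were higher by genotype on control diet and on ethanol, and 19.0% fell with ethanol in WT. The part of these cells in the Aldh1b1 difference was not tested.

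Aldh2 (ENSMUSG00000029455, chromosome 5, 121566027 to 121593824, minus strand) had 25878, 26744, 27812 and 24507 normalised reads in WT control and 23899.5, 22816, 20088 and 19450.0 in labelled-knockout control. On ethanol it had 32392, 29117, 27999 and 25807 in WT and 24298, 23915, 20434 and 19321 in labelled-knockout libraries. Labelled-knockout libraries were below all WT libraries on each diet, yet limma called neither. Groups do not overlap for 17.4% of all genes on control diet and 15.7% on ethanol. On control diet the log2 difference was -0.29 ± 0.12 SE (limma adjusted p = 0.142) and on ethanol -0.39 ± 0.12 SE (limma adjusted p = 0.0505). DESeq2 on recovered reads called both (adjusted p = 0.0496 and 0.00416). Limma called the ethanol-diet one at a floor of 50 (adjusted p = 0.0447), without the trend (0.0344), without WT ethanol library 4 (0.0411) and without labelled-knockout control library 1 (0.0450). With the replicate number as a block over all 4 groups it was called (adjusted p = 0.0456), and with the block in the 2 ethanol groups alone it was not (0.0641). With ethanol the log2 change was 0.13 in WT (95% interval from -0.12 to 0.39) and 0.03 in labelled-knockout livers (from -0.23 to 0.28).

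The ratio of Aldh1b1 to Aldh2 transcripts was higher in labelled-knockout libraries. Of the 2 genes only Aldh1b1 passed the limma test, the ratio itself was not tested, and the proteins were not measured. Per kilobase, Aldh1b1 was 4.12 ± 0.65% of Aldh2 in WT control and 2.87 ± 0.60% in WT ethanol, against 11.8 ± 4.08% and 10.0 ± 1.44% in labelled-knockout control and ethanol livers (SD, n = 4). The ranges of WT, 2.05 to 4.88%, and of labelled-knockout libraries, 7.84 to 17.2%, did not meet.

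Aldh1a1 was lowest in WT control livers, and the other 3 groups overlapped at a higher level. It encodes the cytosolic enzyme that also makes retinoic acid from retinal (ENSMUSG00000053279, chromosome 19, 20492715 to 20643465, plus strand). WT control libraries had 12628, 10596, 15127 and 13070.3 normalised reads, and WT ethanol libraries 18562, 20162, 18332 and 17136. The WT groups did not overlap, as for 35.1% of all genes, and Aldh1a1 rose 1.45-fold (log2 0.54 ± 0.14 SE, limma adjusted p = 0.00718), a call kept without any 1 library. Labelled-knockout control libraries already had 17651, 20819.6, 15727 and 16998, which is 1.39-fold over WT control (log2 0.47 ± 0.14 SE, adjusted p = 0.0404), and labelled-knockout ethanol libraries had 21482, 21242, 15843 and 15482. Ethanol changed it by 0.05 there (95% interval from -0.25 to 0.35), and between genotypes on ethanol the difference was -0.02 (from -0.32 to 0.28).

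The genotype call of Aldh1a1 on control diet is a marginal one. It was lost without any 1 of WT control libraries 1, 2 and 4 or labelled-knockout control libraries 1, 2 and 4 (log2 0.38 to 0.49, limma adjusted p from 0.0642 to 0.120). The same happened with no filter (adjusted p = 0.0922), with only the 2 groups in the fit (0.0621) and with the replicate block (0.0583), while edgeR and DESeq2 kept it. The related gene Aldh1a7 lies beside Aldh1a1 and was also higher by genotype, with 2452 ± 656 normalised reads in WT control and 4121 ± 175 in labelled-knockout control (1.73-fold, adjusted p = 0.00289), and 2359 ± 51.2 and 3683 ± 553 on ethanol (1.55-fold, adjusted p = 0.0127; SD, n = 4). The ethanol-diet call of Aldh1a7 was lost without ethanol libraries 1 and 4 labelled knockout (adjusted p = 0.0755) and with libraries 3 and 4 alone (0.395). Of the 75-base windows of the principal Aldh1a1 transcript 2.19% also occur in Aldh1a7, so how reads were split between the 2 genes is uncertain at that scale.

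Aldh3a2 encodes the membrane-bound fatty aldehyde dehydrogenase (ENSMUSG00000010025, chromosome 11, 61223417 to 61267464, minus strand). It had 6053, 4243, 5702 and 5550.1 normalised reads in WT control and 4639, 4409, 2192 and 2793 in labelled-knockout control libraries. The ranges overlapped, and the fall was by 37.3% (log2 -0.67 ± 0.20 SE, limma adjusted p = 0.0376). Without any 1 of WT control libraries 1, 3 and 4 or labelled-knockout control libraries 3 and 4 it was not called (log2 -0.66 to -0.47, adjusted p from 0.0836 to 0.105), nor by edgeR (adjusted p = 0.0650), without the trend (0.0571) or with only the 2 groups in the fit (0.0923). WT ethanol libraries had 3572, 3360.4, 4469.9 and 4188, and labelled-knockout ethanol libraries 4981, 4039, 3626 and 3850.2. With ethanol the estimates had opposite signs, -0.46 in WT (adjusted p = 0.0780) and 0.29 in labelled-knockout livers (adjusted p = 0.322), and neither passed. The WT fall was called with only the 2 groups in the fit (-0.46, adjusted p = 0.0280), without WT control library 2 (-0.57, 0.0467) and without labelled-knockout control library 3 (-0.46, 0.0346). Between genotypes on ethanol it differed by 0.08 (adjusted p = 0.854).

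Acss2, the acetate-activating enzyme, was the member with the largest ethanol fall after Adh4. The gene (ENSMUSG00000027605, chromosome 2, 155517948 to 155585724, plus strand) had 3183, 3860.1, 8814 and 2580.4 normalised reads in WT control and 1548, 1764, 1226 and 1278 in WT ethanol libraries. The groups did not overlap, as for 35.1% of all genes, and the fall was by 64.8% (log2 -1.51 ± 0.31 SE, limma adjusted p = 0.00108). WT control library 3 was far above the rest of its group, and without it the change was -1.14 (adjusted p = 0.00181). Labelled-knockout control libraries had 2278, 3200.2, 2079 and 4023, and labelled-knockout ethanol libraries 1305, 2245, 1297 and 1369. Ethanol library 2 lay within the control range, and the fall was not called (log2 -0.89 ± 0.31 SE, adjusted p = 0.0506). It was called by DESeq2 (adjusted p = 0.0244), at a floor of 50 (0.0487), with only the 2 groups in the fit (0.0209) and without any 1 of WT control libraries 3 and 4, labelled-knockout control library 3 and labelled-knockout ethanol library 2 (log2 -1.08 to -0.89, limma adjusted p from 0.0106 to 0.0415). The annotated span of Acss2 overlaps Ggt7 and Gss on the other strand, and 4.34% of the 75-base windows of its principal transcript also occur in Ggt7. Without a stated strand setting, reads there cannot be told apart.

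Acss2 is known as a target of the sterol-regulated SREBP factors, and most other targets listed fell with ethanol too. Of 16 SREBP target genes 15 fell in WT (median log2 -1.69, against -0.0091 over all genes) and 12 in labelled-knockout livers (median -1.42, against -0.0076). Of all genes tested, 19.0 and 9.01% were called lower in these comparisons. Over the alternatives run the counts of the list were 12 to 16 in WT and 7 to 15 in labelled-knockout livers, the lowest without ethanol libraries 1 and 4 labelled knockout. Insig1, whose product helps to hold SREBP in the endoplasmic reticulum, went from 3754 ± 896 to 593 ± 152 normalised reads in WT and from 2834 ± 767 to 529 ± 105 in labelled-knockout livers (SD, n = 4). The fatty acid synthase gene Fasn fell to folds of 0.240 in WT and 0.226 in labelled-knockout livers. By genotype, Scd1 and Fasn were lower on control diet, at folds of 0.371 and 0.608, and Fasn on ethanol at 0.573. Of all genes tested, 5.24% were called lower by genotype on control diet and 3.75% on ethanol. Acss2 had no genotype call (log2 -0.55 and 0.07). The genotype calls of this list were few and unstable: on control diet 0 were left without WT control library 3 or labelled-knockout control library 3, and on ethanol 0 without any 1 of WT ethanol libraries 1 and 4 and labelled-knockout ethanol libraries 1 and 4. Fasn lost its genotype call in 20 of 26 alternatives on control diet and in 8 of 30 on ethanol. WT control library 3 was also the highest in this list, with a mean log2 value of 12.22 against 10.79 to 11.27 in the other WT control libraries.

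**Figure D4:**
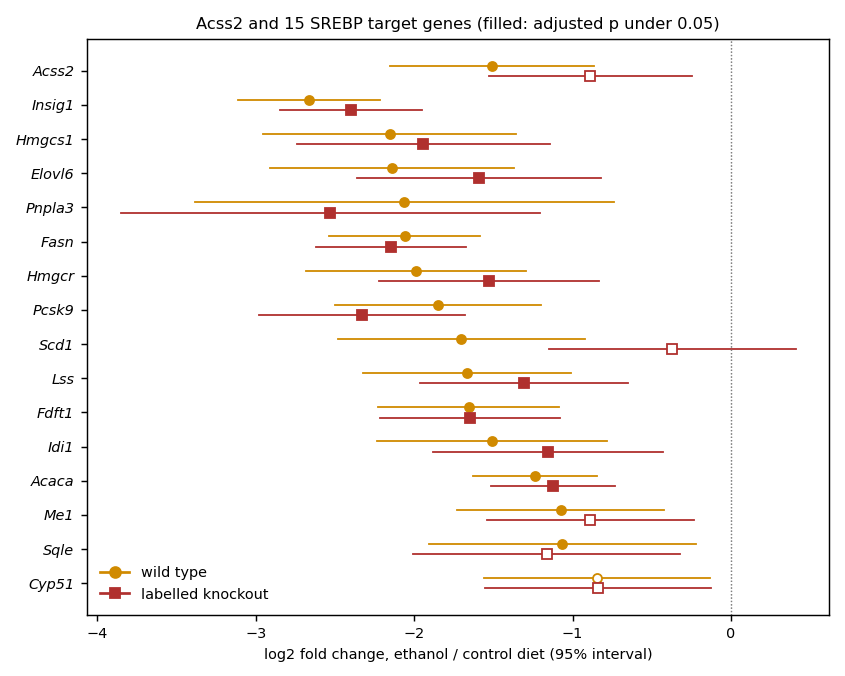
Log2 fold changes with ethanol and 95% intervals for Acss2 and 15 of the 16 SREBP target genes, in WT (circles) and labelled-knockout livers (squares), filled where the limma adjusted p was under 0.05. Every estimate shown is below 0; in WT all shown but Cyp51 passed.

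Other genes of acetate and acetyl-CoA handling moved in both directions. Of 9 tested, 4 rose and 2 fell with ethanol in WT, and 5 rose and 2 fell in labelled-knockout livers, beside 38.0 and 19.2% of all genes called. Acly, which makes cytosolic acetyl-CoA from citrate, fell to folds of 0.146 and 0.185 in the 2 genotypes. Acss3, a mitochondrial short-chain acyl-CoA synthetase, went from 149 ± 37.2 to 297 ± 66.5 normalised reads in WT and from 74.1 ± 11.8 to 318 ± 77.8 in labelled-knockout livers (SD, n = 4), and it was lower by genotype on control diet (fold 0.507, limma adjusted p = 0.00494). The monocarboxylate transporter Slc16a1 rose 2.34-fold in WT and 1.36-fold in labelled-knockout livers, and the carnitine acetyltransferase Crat 1.53-fold and 2.35-fold. The labelled-knockout call of Slc16a1 was lost in 8 of 29 alternatives and the WT call of Crat in 12 of 29. Acot12, the cytosolic acetyl-CoA hydrolase, was lower by genotype on control diet and on ethanol, at folds of 0.709 and 0.808, the second lost in 8 of 30 alternatives.

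No member passed the test of whether the ethanol effect differed between genotypes, where 0.347% of all genes did. By limma 3 of the 10 had an unadjusted p under 0.05, and edgeR and DESeq2 also called 0 of the 10. For Aldh3a2 the difference of the log2 effects, labelled knockout minus WT, was 0.75 (95% interval from 0.16 to 1.35, adjusted p = 0.261). For Adh4 it was 0.51 (from 0.04 to 0.98, adjusted p = 0.332) and for Aldh1a1 -0.49 (from -0.92 to -0.06, adjusted p = 0.306). The remaining 7 lay between -0.19 for Adh5 and 0.62 for Acss2. The ethanol calls seen in 1 genotype alone, of Aldh1a1, Acss2 and Adh5, are thus not shown to differ between genotypes.

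Of 17 other aldehyde dehydrogenase genes listed, 16 were in the table and 12 were tested. By genotype 3 of the 12 were called on control diet and 3 on ethanol, beside 11.6 and 9.88% of all genes, and ethanol called 4 in WT and 2 in labelled-knockout livers, beside 38.0 and 19.2%. By genotype Aldh5a1, the succinic semialdehyde dehydrogenase, was lower on both diets (folds of 0.696 and 0.733), Aldh9a1 on control diet (0.821) and Aldh4a1 on ethanol (0.751), with Aldh1a7 the higher one on both. With ethanol, Aldh8a1 and Aldh4a1 fell in both genotypes, at folds of 0.747 and 0.765 for the first and 0.797 and 0.767 for the second. Aldh18a1, the proline synthesis enzyme at 15.5 ± 6.91 normalised reads in WT control, rose 2.73-fold in WT and the folate enzyme Aldh1l1 1.37-fold. Several of these calls were marginal, with Aldh9a1 lost in 17 of 26 alternatives, Aldh4a1 in 18 of 30 by genotype on ethanol, 16 of 29 with ethanol in WT and 12 of 29 in labelled-knockout livers, Aldh1l1 in 18 of 29 and Aldh5a1 on ethanol in 9 of 30.

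**Figure D5:**
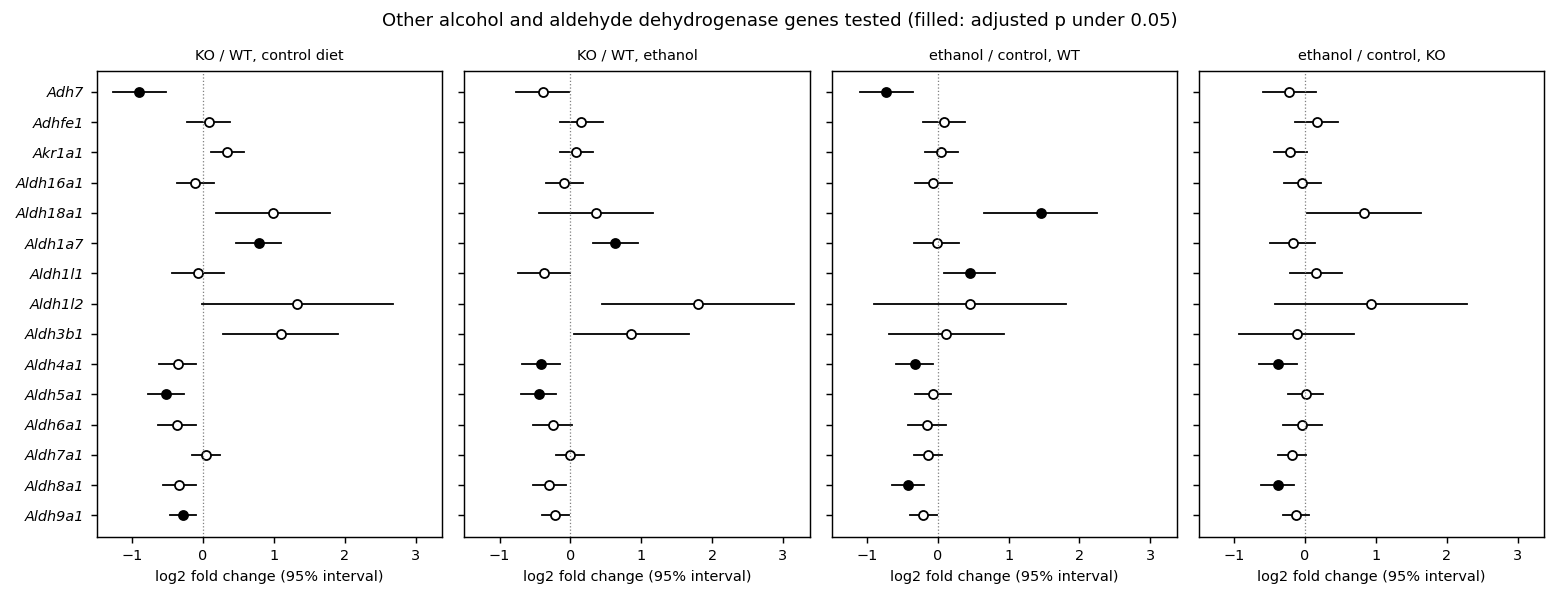
Log2 fold changes with 95% intervals of the 15 other alcohol and aldehyde dehydrogenase genes tested, in 4 comparisons, filled where the limma adjusted p was under 0.05. Aldh1a7 is higher at 0.79 and 0.63 for the genotype on the 2 diets, and Adh7 lower at -0.90 on control diet.

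Ethanol oxidation loads the cell with NADH, which is carried into mitochondria by shuttles. Of 21 genes for shuttles and NAD metabolism, 3 rose and 6 fell with ethanol in WT, 2 rose and 2 fell in labelled-knockout livers, and 2 were lower by genotype on control diet. In these comparisons 38.0, 19.2 and 11.6% of all genes were called. Got1, the cytosolic aspartate aminotransferase of the malate-aspartate shuttle, went from 2659.7 ± 434 to 9517 ± 2106 normalised reads in WT (3.55-fold, limma adjusted p = 0.000252) and from 2458 ± 1125 to 9424 ± 4529.8 in labelled-knockout livers (3.74-fold, adjusted p = 0.000585; SD, n = 4). The aspartate-glutamate carriers went apart, with Slc25a13, the main liver form, at a fold of 0.591 with ethanol in WT and Slc25a12 1.73-fold higher with ethanol in WT and 1.53-fold in labelled-knockout livers (adjusted p = 0.0718 without ethanol libraries 1 and 4). The mitochondrial NAD kinase Nadk2 fell to folds of 0.635 in WT and 0.653 in labelled-knockout livers.

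Of 12 transcription factor genes listed beside the members, 5 fell and 1 rose with ethanol in WT, and 4 fell in labelled-knockout livers. Whether these factors act on the members' promoters was not tested. In these comparisons 38.0 and 19.2% of all genes were called. Srebf1, which encodes SREBP-1, went from 5525 ± 1892 to 841 ± 335 normalised reads in WT and from 4134 ± 753 to 769 ± 141 in labelled-knockout livers (SD, n = 4). The clock output factor Dbp fell to folds of 0.134 in WT and 0.225 in labelled-knockout livers, and Cebpa to 0.488 in WT and 0.658 in labelled-knockout livers (adjusted p = 0.0686 there without ethanol libraries 1 and 4). Ppara, the fatty acid receptor that drives many peroxisomal genes, fell in WT from 1592 ± 151 to 572 ± 199 and was at 768 ± 223 and 772 ± 133 in the labelled-knockout groups. It was the 1 gene of this list whose ethanol effect differed between genotypes (log2 1.57, limma adjusted p = 0.0417), a call lost in 19 of 28 alternatives, among them without ethanol libraries 1 and 4 labelled knockout (1.55, adjusted p = 0.248) and with libraries 3 and 4 alone (1.06, adjusted p = 0.498). It was lower by genotype on control diet (fold 0.469). Mlxipl, which encodes the glucose-responsive factor ChREBP, was lower by genotype on both diets, at folds of 0.715 and 0.672, calls lost in 14 of 26 and 5 of 30 alternatives.

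Across the 16 libraries, the genes most like each member by Pearson's correlation of log2 values were sought among tested genes that are no member. Predicted genes (Gm and Rik names) were left out too, so likeness between members was not looked at. All libraries enter, so shared group differences and shared depth both contribute, and the values are descriptions. Among the genes most like Adh4 were Nudt7 (0.967), a peroxisomal CoA diphosphatase, and Insig1 (0.965). Within groups, after group means were taken off, these fell to 0.132 and 0.662. Acss2 was most like Acat2 (0.959), Rdh11 (0.957) and the mevalonate pathway gene Pmvk (0.932), and it kept 0.906, 0.883 and 0.874 within groups. Aldh1b1 was most like Ntrk2 (0.948), Ubd (0.934) and Gbp6 (0.930), and had 0.679 and 0.418 with the last 2 within groups. Ubd and Gbp6 are known interferon-inducible genes. Aldh1a1 was most like Pgrmc1 (0.933), a haem-binding partner of P450s, with 0.866 within groups. Cat was most like Ndufaf1 (0.946), and Cyp2e1 most like Aaed1, at the lower value of 0.875.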

How the data were processed

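Liver RNA was sequenced as 75 bp single reads in 16 libraries. Per the submitters' processing notes, HISAT2, HTSeq, edgeR and the build GRCm38 were used. Annotation release, strand setting and the tool behind the size factors are not given in those notes. The deposited signal values are reads divided by 1 size factor per library (0.814 to 1.26), a step of the authors read from the values: 100% came out as whole reads within 0.01 read, and the factors equal median-of-ratios factors. Of 27288 genes 27233 were matched to a symbol.

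Genes with a mean of at least 10 (13256) were tested by limma 3.58.1 (R 4.3.3, trend) on log2(value + 1), in 1 fit of 4 group means, with Benjamini-Hochberg adjusted p-values over all of them. Fold changes are on that scale. Counting tests on recovered reads were alternatives: edgeR 4.0.16 called 1525, 1281, 5013, 2679 and 30 genes, and DESeq2 1.42.0 called 1924, 1704, 5150, 3028 and 270, for genotype on control diet, genotype on ethanol, ethanol in WT, ethanol in labelled-knockout livers and the difference of the ethanol effects. Limma called 1544, 1310, 5032, 2543 and 46.

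The members and lists were chosen with earlier results of these data known. Beside the members, up to 3 called genes of a list with the smallest p per contrast could be named, or all where 5 or fewer were called, and the 3 genes most correlated with each member. A few such genes are not reported here. Replicate numbers come from the titles. Same-numbered libraries deviated together in the 2 ethanol groups (correlations from 0.102 to 0.246) and not in other contrasts (from -0.125 to 0.0361), and the meaning of the numbers is not given. Correlations between differently numbered libraries of the 2 ethanol groups ran from -0.25 to 0.199. They were positive between numbers 1 and 2 and between 3 and 4, so a pairing by number is not shown. Between replicates the mean chi-square per gene was 9.95 to 108, so no library was a copy of another. Other floors, scalings, models and left-out libraries were tried. The sets of ethanol libraries (1 and 4 labelled knockout left out, 1 and 2 alone, 3 and 4 alone) and the block in the ethanol groups alone were added after seeing the data. The main pipeline was tested on simulated data. Lengths per kilobase are those of GENCODE principal transcripts, and promoters come from RefSeq.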

Additional observations from a re-analysis of the deposited data

Results flagged for a closer look

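In 40 sets of 4 libraries (10 genes in 4 groups), Dixon's test at the 95% level marked 2 libraries as standing apart from the others of their group, and chance alone marks about 1 in 20 such sets. WT control library 2 was the lowest of its group for Cat, at 27432 normalised reads. Labelled-knockout ethanol library 2 was the highest of its group for Acss2, at 2245 normalised reads.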

How the results depend on the processing

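Of 1420 values of the members under alternatives, 1310 kept direction and side of the threshold, 34 lost their call, 22 gained one and 54 changed sign, none of the last with a call. The cause was not tested for any of them. Calls lost or gained stand beside the genes in the report. The falls of Adh4 in both genotypes and of Cat and Acss2 in WT, the rise of Aldh1a1 in WT and the control-diet differences of Cyp2e1 and Aldh1b1 kept theirs in every alternative run. Scaling with TMM factors moved the median of all genes by less than 0.03.

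Signs changed in these cases. Between genotypes on control diet, Adh1 was 0.012 by edgeR. On ethanol, Aldh1a1 was 0.011 with TMM factors, 0.024 by edgeR, 0.0021 by DESeq2 and 0.14 with ethanol libraries 1 and 2 alone. Aldh3a2 was -0.017 without ethanol libraries 1 and 4 labelled knockout and -0.21 with libraries 3 and 4 alone, where Cat was -0.048. For ethanol, Adh1 in WT was 0.052 with libraries 1 and 2 alone. In labelled-knockout livers Cyp2e1 was 0.0029 with TMM factors, 0.0084 by edgeR, 0.0040 by DESeq2 and 0.20 with libraries 1 and 2 alone, where Aldh1b1 was 0.11. With libraries 3 and 4 alone Aldh2 was -0.11 and Aldh1a1 -0.18, and the difference of the ethanol effects was -0.14 for Aldh1b1, -0.17 for Cyp2e1 and -0.0013 for Cat.

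Leaving out 1 library at a time gave these ranges of log2 differences where the sign changed. By genotype on control diet they were -0.20 to 0.17 for Adh1, -0.28 to 0.066 for Adh4 and -0.13 to 0.029 for Adh5. On ethanol they were -0.095 to 0.062 for Aldh1a1, -0.12 to 0.17 for Acss2, -0.059 to 0.10 for Cat and -0.014 to 0.15 for Aldh3a2. For ethanol in WT they were -0.12 to 0.034 for Adh1 and -0.26 to 0.011 for Cyp2e1. In labelled-knockout livers they were -0.36 to 0.022 for Adh1, -0.086 to 0.13 for Cyp2e1, -0.024 to 0.087 for Aldh2 and -0.030 to 0.13 for Aldh1a1. The difference of effects ranged from -0.31 to 0.072 for Adh1, -0.016 to 0.30 for Cyp2e1 and -0.012 to 0.16 for Cat.

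Counts also moved. With only the compared groups in the fit, 2 members were called by genotype on control diet and 1 on ethanol. On ethanol 1 was also called with no filter, with the replicate block in the ethanol groups alone, and with each of the 3 added sets of ethanol libraries. Ethanol in labelled-knockout livers had 1 called member without ethanol libraries 1 and 4 labelled knockout and 1 with libraries 1 and 2 alone. Over all genes, leaving out ethanol libraries 1 and 4 labelled knockout gave 496 calls by genotype on ethanol, 1003 for ethanol in labelled-knockout livers and 0 for the difference of effects. With libraries 3 and 4 alone there were 434, 1370 and 0, and 3164 for ethanol in WT. The difference of effects, 46 in the main fit, had 16 calls with no trend, 24 with the replicate block, 30 by edgeR, 270 by DESeq2 and 264 with libraries 1 and 2 alone. Leaving out 1 library gave 922 (without WT control library 4) to 1691 calls by genotype on control diet with 2 to 4 members, 848 (without labelled-knockout ethanol library 3) to 1685 on ethanol with 1 to 3 members, and 8 to 215 (without WT ethanol library 3) for the difference of effects.

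The replicate block changed 2 member calls: Aldh1a1 by genotype on control diet was lost (limma adjusted p = 0.0583) and Aldh2 by genotype on ethanol gained (0.0456). In the ethanol groups alone it did not give Aldh2 a call (0.0641) and ended that of Cyp2e1 (0.0851). It changed no other member call. In the ethanol groups 3 libraries correlated best with their own number. Depth did not limit the members, which had at least 319 normalised reads.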

Other observations

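Cytosolic Aldh1a1 and mitochondrial Aldh2 are the most abundant aldehyde dehydrogenases among the 10 genes per kilobase. Aldh1a1 stood at 80.4 ± 11.03% of Aldh2 in WT control livers, 106 ± 8.41% in WT ethanol, 136 ± 13.1% in labelled-knockout control and 137 ± 9.43% in labelled-knockout ethanol livers (SD, n = 4). The ranges of WT control and WT ethanol, of 65.0 to 89.2% and 94.0 to 114%, did not meet, and those of the labelled-knockout groups, of 121 to 150% and 127 to 146%, overlapped. The level of this ratio depends on the length used, here that of the principal transcripts. Per kilobase of all annotated exons, the mean of Aldh1a1 was below that of Aldh2 in every group. It was 2604 against 5118 in WT control and 3757 against 5624 in WT ethanol. In labelled-knockout livers it was 3605 against 4207 on control diet and 3750 against 4290 on ethanol. The ratio was looked at after its values were seen and was not tested.

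Marker lists of other liver cells moved as well. With ethanol, 6 of 10 endothelial markers rose and 1 fell in WT and 4 rose in labelled-knockout livers. Of 9 stellate cell markers 6 rose in WT and 3 in labelled-knockout livers. Of 3 T and NK cell markers tested 2 were higher by genotype on control diet and 1 on ethanol. Over all genes 38.0% were called with ethanol in WT and 19.2% in labelled-knockout livers. By genotype 11.6% were called on control diet and 9.88% on ethanol.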
